A study of Mus musculus with 3 samples.

Results

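The genes of 8 proteins that write, maintain or remove DNA methylation were examined in spermatogonia purified by FACS from testes at postnatal day 7 (P7). The genes were *Dnmt1*, *Uhrf1*, *Dnmt3a*, *Dnmt3b*, *Dnmt3l*, *Tet1*, *Tet2* and *Tet3*, which were chosen by name, and they are 8 of 21000 protein-coding genes with a curated RefSeq transcript. Each gene was measured at its curated transcript starts, from 2 kb upstream to 0.5 kb downstream, and in its body, which is the gene span without these windows. The 8 genes have 32 curated transcripts with 17 distinct start positions. Positions within 500 bp of each other were taken as 1 start, which left 14 starts of 24064 in all genes. The cells came from WT, *Pld6* KO and *Dnmt3l* KO mice of the C57BL6/J strain, sorted with an antibody against the surface protein EpCAM, and 1 library per genotype was analysed. Both mutant lines had been backcrossed to this strain, and neither mutation was limited to one cell type. The study counted as WT a mouse with both *Pld6* alleles intact, a *Pld6* heterozygote and a *Dnmt3l* heterozygote, and the labels do not say which of these gave the WT library used here, so WT may carry 1 mutant allele, also of *Dnmt3l*. RNA was not measured in these libraries. PLD6 is needed to make piRNAs, small RNAs that direct methylation to some retrotransposons, and DNMT3L is a cofactor of *de novo* methylation without catalytic activity of its own.

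A methylation level is the share of CpG calls that were methylated, pooled over the CpG sites of a region, as a fraction from 0 to 1. Depth differed between the libraries, from 19289688 calls in *Dnmt3l* KO through 43757722 in WT to 64076569 in *Pld6* KO, or 0.879, 1.996 and 2.92 calls per CpG site of the reference. Over all sites the level was 0.301 in *Dnmt3l* KO, 0.703 in WT and 0.722 in *Pld6* KO. With 1 library each there was no spread between replicates to compare a difference with, so the effect of a genotype and that of its library cannot be told apart. All intervals below are 95% intervals for counting error only (Wilson for a level, Newcombe for a difference), and they may be too narrow because calls of the same read are linked. For a level of 0, the bound given in the text is 3 calls of the total and not the Wilson limit drawn in the figures. A region was called different when its levels differed by at least 0.3 with at least 10 calls at a start, or 30 in a body, in both libraries. Of the 6 maternally methylated imprinted genes examined, which should lack methylation in male germ cells, 5 were under 0.2 in WT within 500 bp of the start. The highest of these 5 was *Kcnq1ot1*, at 0.0780 over 141 calls in WT, 0.0700 over 243 in *Pld6* KO and 0.0154 over 65 in *Dnmt3l* KO. *Snrpn* was the exception, at 0.44 over 25 calls in WT, 0 of 34 calls in *Pld6* KO (which allows up to 0.0882) and 0.0714 over 28 calls in *Dnmt3l* KO. The starts of 7 of 8 germ cell genes were under 0.2 in WT (*Nanos3* was at 0.861), as were 64.5% of all 21343 starts with at least 10 calls in every library. Those of 6 genes of somatic testis cells ranged from 0 of 250 calls (*Gata4*), which allows a level of up to 0.012, to 0.869 (*Amh*). A start can be unmethylated in cells that do not use the gene, so the germ cell and somatic genes do not measure other cell types in the sort. The study checked its sort at the *Lit1* region, which it gives as unmethylated in male germ cells and partly methylated in somatic cells. No share of other cells was estimated here from the imprinted starts, and the part of such cells in the results was not tested.

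DNMT3A and DNMT3B add methyl groups to unmethylated CpG sites, and DNMT3L binds them and stimulates this. DNMT1, brought to newly copied DNA by UHRF1, restores the methylation of the old strand on the new one. TET1, TET2 and TET3 oxidise methylcytosine, the first step of its removal, and bisulfite sequencing reads methylcytosine and its hydroxymethyl form alike. In the male germline, methylation is erased in primordial germ cells and laid down again in prospermatogonia before birth, when *Dnmt3l* is strongly expressed. *Dnmt3l* is known to use separate starts in oocytes, in prospermatogonia and in adult testis, and *Dnmt1* a separate upstream first exon in oocytes.

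The starts that were methylated in WT lay in sequence with few CpG sites. The RefSeq promoters shown run from 250 bases before to 50 bases after the start, with every CpG in capitals and written along the gene's strand (GRCm38.p6, the assembly of mm10). All 15 promoters of the 8 genes in the RefSeq set were the same as the genome. Those of *Dnmt1* are shown because one of its starts was methylated in WT and the other was not, that of *Uhrf1* as a second CpG-rich one, and those of *Dnmt3l* because 2 of its 3 starts were methylated in WT. Start 2 of *Dnmt1* has 2 positions, and the promoter of the downstream one (20952623), the richer in CpG, is given.
Dnmt1 start 1 (chr9:20959839-20960138, minus strand): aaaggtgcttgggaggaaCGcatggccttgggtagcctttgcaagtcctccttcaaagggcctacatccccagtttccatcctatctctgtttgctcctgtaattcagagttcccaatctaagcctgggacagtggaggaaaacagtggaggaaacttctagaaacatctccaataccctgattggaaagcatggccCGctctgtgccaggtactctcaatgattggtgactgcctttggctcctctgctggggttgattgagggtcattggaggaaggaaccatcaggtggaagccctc
Dnmt1 start 2, downstream position (chr9:20952574-20952873, minus strand): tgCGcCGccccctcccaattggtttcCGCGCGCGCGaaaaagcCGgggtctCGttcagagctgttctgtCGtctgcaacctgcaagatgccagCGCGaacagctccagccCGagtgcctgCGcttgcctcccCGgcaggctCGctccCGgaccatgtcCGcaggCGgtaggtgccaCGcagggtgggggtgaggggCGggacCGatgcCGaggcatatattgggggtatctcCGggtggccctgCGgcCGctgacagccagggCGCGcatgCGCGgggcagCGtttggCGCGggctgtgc
Uhrf1 start 2 (chr17:56304063-56304362, plus strand): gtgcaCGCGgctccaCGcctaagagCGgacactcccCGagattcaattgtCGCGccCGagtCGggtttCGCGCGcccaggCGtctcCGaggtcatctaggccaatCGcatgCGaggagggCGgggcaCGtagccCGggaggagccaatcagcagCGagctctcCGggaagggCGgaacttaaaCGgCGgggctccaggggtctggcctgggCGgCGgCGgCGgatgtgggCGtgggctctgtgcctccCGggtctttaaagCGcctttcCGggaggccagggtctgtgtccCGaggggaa
Dnmt3l start 1 (chr10:78042037-78042336, plus strand): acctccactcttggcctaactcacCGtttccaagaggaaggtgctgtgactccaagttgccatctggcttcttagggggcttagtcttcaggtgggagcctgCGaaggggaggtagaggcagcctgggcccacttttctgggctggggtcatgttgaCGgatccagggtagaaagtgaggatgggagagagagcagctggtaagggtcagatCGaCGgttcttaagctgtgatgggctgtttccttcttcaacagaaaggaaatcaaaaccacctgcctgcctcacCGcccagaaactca
Dnmt3l start 2 (chr10:78049592-78049891, plus strand): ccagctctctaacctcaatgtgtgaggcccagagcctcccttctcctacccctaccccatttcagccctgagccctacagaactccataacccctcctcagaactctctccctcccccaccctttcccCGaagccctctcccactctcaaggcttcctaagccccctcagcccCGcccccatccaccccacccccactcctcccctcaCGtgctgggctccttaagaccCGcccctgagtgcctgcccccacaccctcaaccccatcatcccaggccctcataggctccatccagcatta
Dnmt3l start 3 (chr10:78055085-78055384, plus strand): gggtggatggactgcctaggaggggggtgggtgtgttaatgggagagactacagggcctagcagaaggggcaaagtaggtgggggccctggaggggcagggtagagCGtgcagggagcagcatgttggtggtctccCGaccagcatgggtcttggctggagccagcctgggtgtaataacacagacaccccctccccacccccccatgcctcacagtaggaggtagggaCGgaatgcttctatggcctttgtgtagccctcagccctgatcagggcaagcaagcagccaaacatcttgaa

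These 300 bases at *Dnmt1* start 2 held 33 CpG sites, and 1 of 135 calls in them was methylated in WT, 3 of 60 in *Pld6* KO and 0 of 32 in *Dnmt3l* KO. Those at *Uhrf1* start 2 held 33 CpG sites as well, with 0 of 117 methylated calls in WT and 0 of 109 in *Pld6* KO, beside 0 of 13 in *Dnmt3l* KO. By counting error these zeros allow levels of up to 0.0256, 0.0275 and 0.231. The *Dnmt1* start 1 sequence held only 2 CpG sites, and those of *Dnmt3l* held 6, 4 and 3. At *Dnmt3l* start 1, 6 of 7 calls in these bases were methylated in WT and 24 of 28 in *Pld6* KO, against 0 of 2 in *Dnmt3l* KO, which is too few calls to give a level. Calls in the 300 bases were as few at the other *Dnmt3l* starts and at *Dnmt1* start 1, so the wider windows were used for all comparisons. Among the 15 promoters, 12 held GGGCGG, the GC box bound by SP factors, on either strand, and 35.7% of the 32851 promoters of the RefSeq set did. CACGTG, an E-box, was in 2 of the 15 and in 7.15% of all. TTTGGCGC, a site for E2F factors, was in 1 of the 15, the *Dnmt1* start 2 promoter above, and in 0.514% of all. Each GGGCGG holds a CpG, so its count follows CpG content in part.

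Of the 14 starts, 11 were under 0.2 in WT and 3 were over 0.8 (the plot of start levels). Over all 21343 starts with at least 10 calls in every library, 64.5% were under 0.2 in WT and 21.5% over 0.6. The 3 methylated starts fell by at least 0.3 in *Dnmt3l* KO, and these were *Dnmt1* start 1, *Dnmt3l* start 1 and *Dnmt3l* start 3. Over all genes, 22.0% of 21354 starts fell by this much, and 76.6% of the 6121 starts that had a WT level of at least 0.3. The counts for the 8 genes, 3 of 14 and 3 of 3, lie near these shares, so the decrease was not particular to these genes. No start of the 8 genes changed by 0.3 in *Pld6* KO, where 0.923% of all starts did in either direction. This count depended on the sites used. With only sites of at least 3 calls, *Dnmt1* start 2 rose by 0.377 and *Dnmt3l* start 3 fell by 0.305, where 1.97% of all starts changed. With sites at least 80 bp apart *Dnmt3l* start 3 fell by 0.373, where 1.21% of all starts changed.

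**Figure D1:**
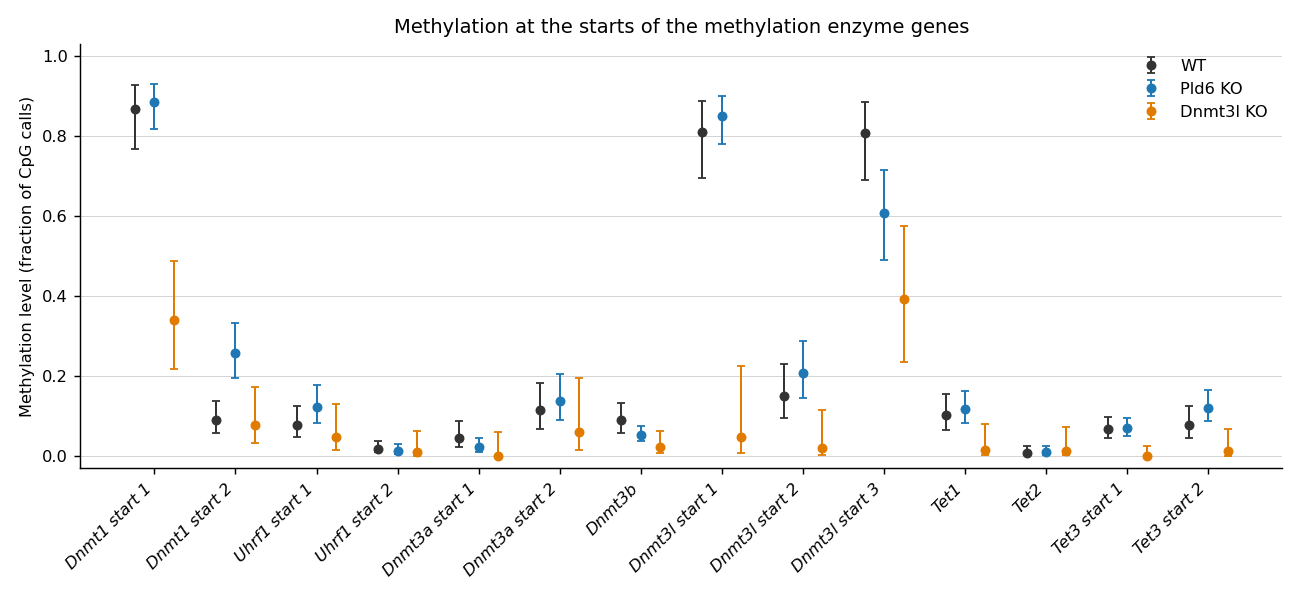
Methylation level (fraction of CpG calls, y axis) at the 14 starts of the 8 genes (x axis) in WT, *Pld6* KO and *Dnmt3l* KO, 1 library each, with bars for 95% Wilson intervals. *Dnmt1* start 1 and *Dnmt3l* starts 1 and 3 lie above 0.8 in WT and at 0.341, 0.0476 and 0.393 in *Dnmt3l* KO, and the other 11 starts lie below 0.2 in WT.

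*Dnmt1*, the maintenance methyltransferase, has 2 starts on the minus strand of chromosome 9, 6909 bp apart. At the upstream start 1 (position 20959888), the level was 0.868 (0.767 to 0.929, 68 calls) in WT, 0.885 (0.817 to 0.930, 122 calls) in *Pld6* KO and 0.341 (0.219 to 0.489, 44 calls) in *Dnmt3l* KO. The WT and *Pld6* KO values overlapped and the *Dnmt3l* KO value lay apart from both, with a difference from WT of -0.527 (-0.663 to -0.348). Start 1 is the one in sequence with few CpG sites shown above. Within 500 bp of it, 12 of 13 calls were methylated in WT and 3 of 4 in *Dnmt3l* KO, too few for a comparison. Start 2 (position 20952979), which together with the position just downstream begins 4 of the 5 curated *Dnmt1* transcripts, had a level of 0.0909 in WT (198 calls) and 0.258 in *Pld6* KO (151 calls), against 0.0794 in *Dnmt3l* KO (63 calls). The *Pld6* KO difference there was 0.167 (0.0879 to 0.249), and a two-sided Fisher's exact test on the calls, adjusted by Benjamini-Hochberg over all starts, gave an adjusted p = 0.00251. It was the only start of the 14 that this test called for *Pld6* KO, where it called 6.09% of all starts. The libraries differed in where their calls fell within this window. Within 500 bp of the start, 1 of 177 calls was methylated in WT and 6 of 107 in *Pld6* KO, and in the part from 2 kb to 0.5 kb upstream, 17 of 21 and 33 of 44. The upstream part alone was at 0.81 in WT and 0.75 in *Pld6* KO, so that the sign of the difference was opposite to that of the whole window. When each site counted equally, the difference over the whole window was 0.0362.

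*Uhrf1*, which recognises hemimethylated CpG sites, has 2 starts on chromosome 17, 976 bp apart, whose windows share sites. Start 1 (position 56303337) was at 0.0794 in WT (189 calls) and 0.123 in *Pld6* KO (187 calls), compared with 0.0476 in *Dnmt3l* KO (63 calls). Start 2 (position 56304313), with 133 CpG sites in its window, was at 0.0192 (416 calls), 0.0140 (428 calls) and 0.0118 (85 calls). All 3 libraries overlapped in their intervals at both starts. Within 500 bp of start 1, 0 of 127 calls were methylated in WT, which allows a level of up to 0.0236.

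The catalytic *de novo* enzymes had unmethylated starts in every library. *Dnmt3a* start 1 on chromosome 12 (position 3806980), the most CpG-rich window of the 14 with 187 sites, was at 0.0460 in WT (174 calls) and 0.0227 in *Pld6* KO (308 calls), and 0 of 58 calls were methylated in *Dnmt3l* KO, which allows a level of up to 0.0517. Start 2 lies within the gene, 84764 bp downstream (position 3891744), and gives rise to the shorter DNMT3A2, the form known from embryonic stem cells and germ cells. It was at 0.115 in WT (122 calls) and 0.139 in *Pld6* KO (137 calls), against 0.0606 in *Dnmt3l* KO (33 calls). Although the gene around it was methylated, none of 70 calls within 500 bp of this start were methylated in WT, none of 62 in *Pld6* KO and none of 21 in *Dnmt3l* KO, which allows levels of up to 0.0429, 0.0484 and 0.143. *Dnmt3b* has 1 start, on chromosome 2 (position 153649449), and was at 0.0897 in WT (223 calls) and 0.0544 in *Pld6* KO (588 calls), with 0.0226 in *Dnmt3l* KO (133 calls). The difference between WT and *Dnmt3l* KO at *Dnmt3b* was -0.0671 (-0.114 to -0.0153), with an adjusted p = 0.0358 by Fisher's exact test on the calls.

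*Dnmt3l* was the only one of the 8 genes with more than 1 methylated start. In *Dnmt3l* KO, 53 neighbouring CpG sites had no call, at chr10:78050450-78054524, where WT had 88 calls (level 0.909) and *Pld6* KO had 171 (level 0.901). The longest run of sites without a call around the gene was 9 sites in WT and 4 in *Pld6* KO. The run covers exons 4 to 9 of the longest transcript and marks the part removed in the mutant, so the library labelled *Dnmt3l* KO carried the deletion, and these sites were left out in all 3 libraries. Start 1 (position 78042287) lies inside *Aire*, a gene on the opposite strand at chr10:78030022-78043610. It was at 0.810 in WT (0.696 to 0.888, 63 calls) and 0.851 in *Pld6* KO (0.781 to 0.901, 134 calls), compared with 0.0476 in *Dnmt3l* KO (0.00846 to 0.227, 21 calls). This difference of -0.762 (-0.849 to -0.550) was the largest among the 14 starts, and 1 of 21 calls in *Dnmt3l* KO was methylated. Start 2 (position 78049842), 7555 bp further on, was at 0.152 in WT (112 calls) and 0.208 in *Pld6* KO (0.146 to 0.287), against 0.0222 in *Dnmt3l* KO (45 calls). The difference of *Dnmt3l* KO at start 2 was -0.130 (-0.210 to -0.0212), with an adjusted p = 0.0592 by Fisher's exact test on the calls. Within 500 bp of start 2, 10 of 35 calls were methylated in WT, 8 of 48 in *Pld6* KO and 0 of 23 in *Dnmt3l* KO, which allows a level of up to 0.130.

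*Dnmt3l* start 3 (position 78055335) lies in the gene, 13048 bp after start 1, and part of its window was deleted. Of the 31 CpG sites of the window, those outside the deletion that had calls numbered 16 in WT and 20 in *Pld6* KO, compared with 14 in *Dnmt3l* KO. It was at 0.806 in WT (0.692 to 0.886, 62 calls) and 0.609 in *Pld6* KO (0.491 to 0.715, 69 calls), with 0.393 in *Dnmt3l* KO (0.236 to 0.576, 28 calls). Here the *Pld6* KO level lay between the other two, with a difference from WT of -0.198 (-0.340 to -0.0410) and an adjusted p = 0.165 by Fisher's exact test on the calls. The *Dnmt3l* KO difference was -0.414 (-0.590 to -0.197). Along *Dnmt3l*, then, the start that was low in WT lay between 2 that were methylated.

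The *Tet* genes, which encode the dioxygenases of active demethylation, had 4 starts that were all at 0.103 or below in WT. *Tet1* (chromosome 10, position 62887324) was at 0.103 in WT (185 calls) and 0.118 in *Pld6* KO (246 calls), compared with 0.0154 in *Dnmt3l* KO (65 calls). *Tet2* (chromosome 3, position 133544390) was at 0.00855 in WT (351 calls) and 0.00998 in *Pld6* KO (401 calls), against 0.0137 in *Dnmt3l* KO (73 calls). *Tet2* had the lowest WT level of the 14 starts, and its intervals overlapped in all 3 libraries. *Tet3* start 1 (chromosome 6, position 83456392) was at 0.0676 in WT (340 calls) and 0.0709 in *Pld6* KO (508 calls), and 0 of 150 calls were methylated in *Dnmt3l* KO, which allows a level of up to 0.02. *Tet3* start 2, 14714 bp into the gene (position 83441678), was at 0.0778 in WT (180 calls) and 0.121 in *Pld6* KO (273 calls), with 0.0125 in *Dnmt3l* KO (80 calls). The stretch of 1 kb that holds this start (chr6:83441393-83442392) lies within 1 kb of a start of *B230319C09Rik*. Fisher's exact test on the calls separated WT and *Dnmt3l* KO at *Tet3* start 1 (adjusted p = 0.00137) and not at *Tet1* (adjusted p = 0.0711) or *Tet3* start 2 (adjusted p = 0.094). In all, this test called 5 of the 14 starts lower in *Dnmt3l* KO, against 39.7% of all starts: the 3 methylated ones, *Dnmt3b* and *Tet3* start 1.

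Starts with more CpG sites had lower levels in WT, as over all genes. Of the 4 starts of these genes with 30 to 49 CpG sites in the window, 3 were over 0.6 in WT, as were 38.8% of all starts in that class. All 5 starts with 50 to 99 sites and all 5 with 100 or more were under 0.2, as were 85.5% and 98.3% of all starts in these classes. *Dnmt3l* start 2, with 45 CpG sites, was the only one of the 8 genes' starts with fewer than 50 sites that was under 0.2, and 29.1% of all starts with 30 to 49 sites were. The median level of the 14 starts was 0.0903 in WT and 0.122 in *Pld6* KO, compared with 0.0224 in *Dnmt3l* KO. Over all 21343 starts with at least 10 calls in every library it was 0.111, 0.137 and 0.0339.

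**Figure D2:**
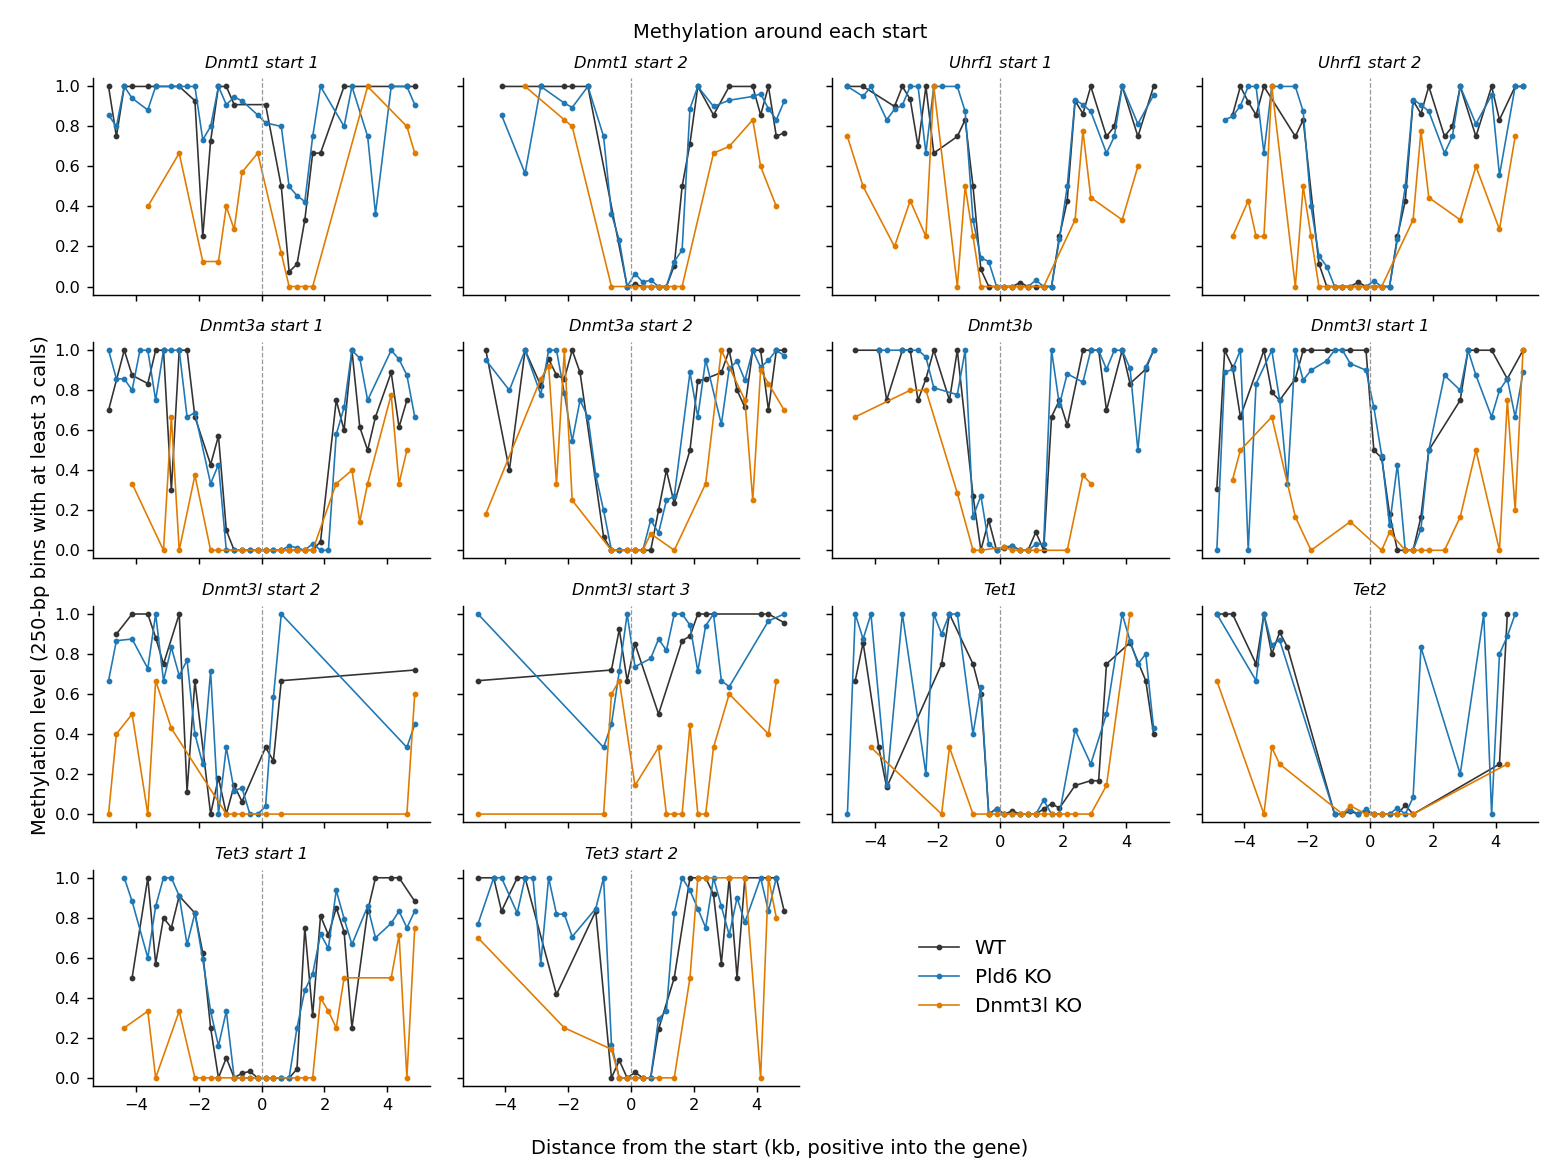
Methylation level (y axis) in 250-bp bins with at least 3 calls, against the distance from each of the 14 starts in kb (x axis, positive into the gene), with 1 line per library. Starts that were low in WT sit in a valley seen in both WT and *Pld6* KO, such as 1.75 kb upstream to 1 kb downstream of *Uhrf1* start 2 in both. The valley is of unequal length at some, such as 3.75 kb in WT and 2.5 kb in *Pld6* KO at *Tet1*. *Dnmt1* start 1 and *Dnmt3l* starts 1 and 3 lie outside any valley in WT.

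The unmethylated valley around a start was measured as the run of 250-bp bins on either side in which no bin with at least 3 calls reached 0.3. It was 2.75 kb long at *Uhrf1* start 1 in both WT and *Pld6* KO, 3.25 and 3.5 kb at *Dnmt3a* start 1, and 2.5 kb in both at *Dnmt3b*. The valley was shorter in *Pld6* KO than in WT at *Tet1* (2.5 against 3.75 kb), *Tet3* start 1 (2.25 against 3 kb) and *Dnmt3l* start 2 (1.25 against 1.75 kb), and longer at *Dnmt1* start 2 (2.25 against 1.75 kb) and *Dnmt3a* start 2 (2.5 against 2 kb). In *Dnmt3l* KO the valley was 2.5 kb at *Uhrf1* start 1, 3.5 kb at *Dnmt3a* start 1 and 3.75 kb at *Dnmt3b*. *Tet2* had the longest in WT, 5.5 kb, against 2.75 kb in *Pld6* KO and 7.5 kb in *Dnmt3l* KO, and few bins in its first intron had 3 calls. At *Dnmt3l* start 1, where no valley reached the start in WT, *Dnmt3l* KO was below 0.3 from 2.5 kb upstream to 3 kb downstream. Part of that stretch was low in WT too. In the 0.5-kb steps beginning 0.5, 1 and 1.5 kb after the start, 6 of 37, 0 of 27 and 7 of 30 calls were methylated in WT. In *Pld6* KO 10 of 46, 0 of 59 and 10 of 50 were. Bins with few calls can end or extend a run, so these lengths are approximate.

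The flanks of the valleys were then measured on their own, from 2 kb to 0.5 kb upstream of each start, a choice made after the profiles had been seen. In *Dnmt3l* KO, 5 of 14 flanks fell by at least 0.3, against 44.4% of 16007 flanks of all genes. Beside *Dnmt1* start 1 and *Dnmt3l* start 1, these were at *Dnmt1* start 2, *Dnmt3b* and *Tet1*, whose whole windows had been under 0.2 in WT. The flank of *Tet1* was at 0.81 in WT (21 calls) and 0.778 in *Pld6* KO (36 calls), against 0.0909 in *Dnmt3l* KO (11 calls). The flank of *Dnmt3b* was at 0.5 in WT (30 calls) and 0.5 in *Pld6* KO (46 calls), with 0.08 in *Dnmt3l* KO (25 calls). That of *Dnmt1* start 2 was at 0.81 in WT (21 calls) and 0.294 in *Dnmt3l* KO (17 calls). Within 500 bp of these 3 starts, by contrast, WT had 1 of 177, 5 of 193 and 2 of 164 methylated calls at *Dnmt1*, *Dnmt3b* and *Tet1*, so that their methylation in WT lay mostly in the flank. The flank of *Tet2* was as unmethylated as its start in every library, with 1 of 128 methylated calls in WT and 1 of 89 in *Pld6* KO, compared with 1 of 31 in *Dnmt3l* KO. In *Pld6* KO, 1 flank of the 14 changed by 0.3, that of *Uhrf1* start 1, at 0.242 in WT (62 calls) and 0.55 in *Pld6* KO (40 calls), and 3.39% of 20356 flanks of all genes did.

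All 8 gene bodies were methylated in WT and *Pld6* KO and lower in *Dnmt3l* KO (the plot of body levels). The body of *Dnmt1* (chr9:20907206-20959888) was at 0.875 in WT (0.861 to 0.888, 2307 calls) and 0.886 in *Pld6* KO (0.875 to 0.896, 3511 calls), against 0.622 in *Dnmt3l* KO (0.590 to 0.653, 921 calls). That of *Uhrf1* (chr17:56303337-56323486) was at 0.887 in WT (639 calls) and 0.862 in *Pld6* KO (980 calls), with 0.602 in *Dnmt3l* KO (0.541 to 0.659, 261 calls). The 2 maintenance genes thus kept the highest levels of the 8 in *Dnmt3l* KO, with intervals that overlapped each other and lay above that of *Tet3*, the next gene. Their differences from WT, -0.253 (-0.287 to -0.219) and -0.286 (-0.350 to -0.222), were under 0.3 in size. That of *Uhrf1* passed this size when only sites with at least 3 calls (-0.325) or sites called in all 3 libraries (-0.320) were used.

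Among the *de novo* genes, *Dnmt3a* (chr12:3806980-3914443) was at 0.782 in WT (3103 calls) and 0.768 in *Pld6* KO (5145 calls), compared with 0.457 in *Dnmt3l* KO (0.431 to 0.484, 1382 calls). *Dnmt3b* (chr2:153649449-153687730) was at 0.818 in WT (937 calls) and 0.853 in *Pld6* KO (1591 calls), against 0.431 in *Dnmt3l* KO (0.383 to 0.480, 397 calls). The body of *Dnmt3l* (chr10:78042287-78063622), without the deleted sites, was at 0.685 in WT (0.634 to 0.732, 346 calls) and 0.657 in *Pld6* KO (0.616 to 0.696, 539 calls), with 0.213 in *Dnmt3l* KO (0.162 to 0.273, 207 calls). *Dnmt3l* had the lowest level of the 8 in *Dnmt3l* KO and the largest difference from WT, -0.472 (-0.541 to -0.393). The interval of its level overlapped that of *Tet1*, and that of its difference overlapped those of *Dnmt3b*, *Tet1* and *Tet2*. The differences of *Dnmt3a* and *Dnmt3b* were -0.324 (-0.354 to -0.294) and -0.387 (-0.440 to -0.331).

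The 3 *Tet* bodies did not share a level. *Tet1* (chr10:62804570-62887324) was at 0.693 in WT (2213 calls) and 0.714 in *Pld6* KO (3267 calls), compared with 0.297 in *Dnmt3l* KO (0.269 to 0.326, 1005 calls). *Tet2* (chr3:133463677-133544390) was at 0.866 in WT (1228 calls) and 0.852 in *Pld6* KO (1794 calls), against 0.426 in *Dnmt3l* KO (0.386 to 0.468, 549 calls). *Tet3* (chr6:83362373-83456392) was at 0.855 in WT (2990 calls) and 0.858 in *Pld6* KO (4543 calls), with 0.501 in *Dnmt3l* KO (0.472 to 0.530, 1154 calls). The differences from WT were -0.397 (-0.430 to -0.362), -0.440 (-0.485 to -0.394) and -0.354 (-0.385 to -0.322), so that the *Tet2* interval lay apart from that of *Tet3* and overlapped that of *Tet1*.

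**Figure D3:**
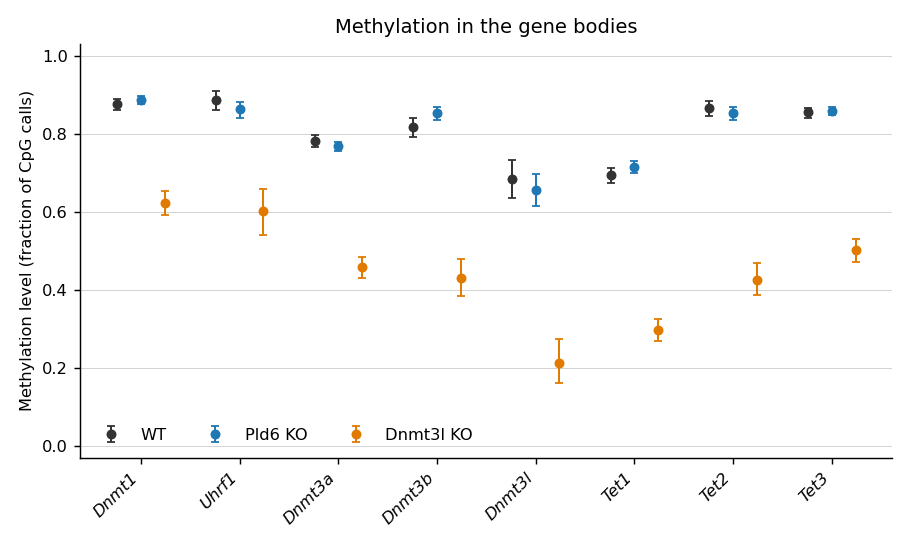
Methylation level (fraction of CpG calls, y axis) in the bodies of the 8 genes (x axis) in WT, *Pld6* KO and *Dnmt3l* KO, 1 library each, with bars for 95% Wilson intervals. In *Dnmt3l* KO the bodies range from 0.213 at *Dnmt3l* to 0.622 at *Dnmt1*, while WT and *Pld6* KO lie close together in each gene.

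By size, 6 of 8 bodies fell by at least 0.3 in *Dnmt3l* KO, against 71.3% of 17415 bodies of all genes. By Fisher's exact test on the calls all 8 were lower, against 95.5% of all. No body of the 8 changed by 0.3 in *Pld6* KO, where 0.13% of all bodies did. The Fisher test, which called 17.9% of all bodies in *Pld6* KO, called 0 of the 8, and 1 of them, *Dnmt3b*, had an unadjusted p under 0.05 (0.0213, difference 0.0354). The median body level of the 8 genes was 0.836 in WT and 0.853 in *Pld6* KO, compared with 0.444 in *Dnmt3l* KO, and over all 17412 bodies with at least 30 calls in every library it was 0.809, 0.817 and 0.386. The medians of the 8 bodies thus lay close to those of all genes, and *Dnmt1* and *Uhrf1* stood near the upper end of the range in *Dnmt3l* KO (the plot of all protein-coding genes).

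In *Dnmt3l* KO, the body level of *Dnmt1* was above that of 97.8% of all bodies and that of *Uhrf1* above 96.0%. In WT the same bodies were above 77.9% and 83.9%. Both thus stood higher in the order of genes in *Dnmt3l* KO than in WT, as did *Dnmt3a*, *Dnmt3b*, *Tet1* and *Tet3*. Among bodies within 1 percentage point of the same GC content, *Dnmt1* was above 94.9% of 1815 and *Uhrf1* above 93.1% of 1561 in *Dnmt3l* KO. At the other end, *Dnmt3l* was above 19.8% of all bodies and *Tet1* above 32.8%. The others lay nearer the middle, at 59.1% for *Tet2*, 60.3% for *Dnmt3b*, 66.9% for *Dnmt3a* and 77.3% for *Tet3*. In WT, *Dnmt3l* without the deleted sites was already above only 26.5% of all bodies and *Tet1* above 27.4%. *Tet2* was above 73.4% in WT, *Dnmt3b* above 52.9%, *Dnmt3a* above 42.7% and *Tet3* above 67.9%.

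**Figure D4:**
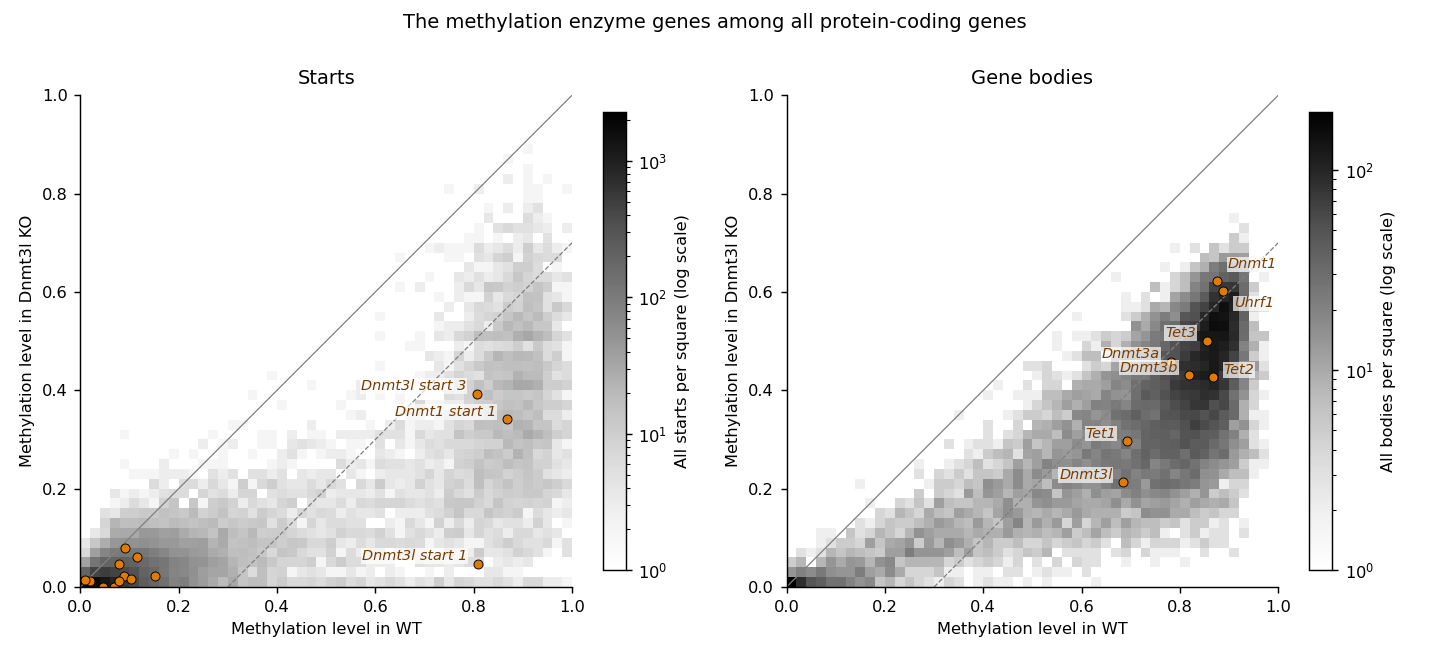
Level in *Dnmt3l* KO (y axis) against WT (x axis) for all starts (left) and bodies (right) of protein-coding genes in grey on a log scale of number per square, with the 8 genes in orange, the solid line at equal levels and the dashed line at a decrease of 0.3. The starts lie in a corner near 0 apart from the 3 named, and the bodies of *Dnmt1* and *Uhrf1* lie above the dashed line, high in the cloud.

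Along the genes, levels in WT and *Pld6* KO were high and even outside a few low stretches, and *Dnmt3l* KO was lower than WT in all tiles with enough calls but the first tiles of *Uhrf1* and *Tet2* (the plot of 5-kb tiles). The median 5-kb tile of *Dnmt1* was at 0.938 in WT and 0.907 in *Pld6* KO, against 0.629 in *Dnmt3l* KO, and that of *Tet1* at 0.902, 0.854 and 0.419. Past the first 10 kb, 5-kb tiles of *Dnmt1* lay between 0.891 and 0.956 in WT and between 0.534 and 0.770 in *Dnmt3l* KO. From 0 to 5 kb of *Dnmt1*, WT was at 0.424 (0.341 to 0.512) and *Pld6* KO at 0.672 (0.602 to 0.735). From 5 to 10 kb they were at 0.164 (0.129 to 0.206) and 0.288 (0.241 to 0.340). Their intervals lay apart in some other tiles too, in either direction, such as 0.955 against 0.874 from 40 to 45 kb of *Dnmt1*. These tiles were picked after their values were seen. The tile from 5 to 10 kb of *Tet1* stood out, at 0.464 in WT (207 calls) and 0.480 in *Pld6* KO (404 calls), with 0.0368 in *Dnmt3l* KO (163 calls). This *Tet1* tile was singled out after its values were seen, and it was the tile next to the start tile, at 0.0870 in WT.

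**Figure D5:**
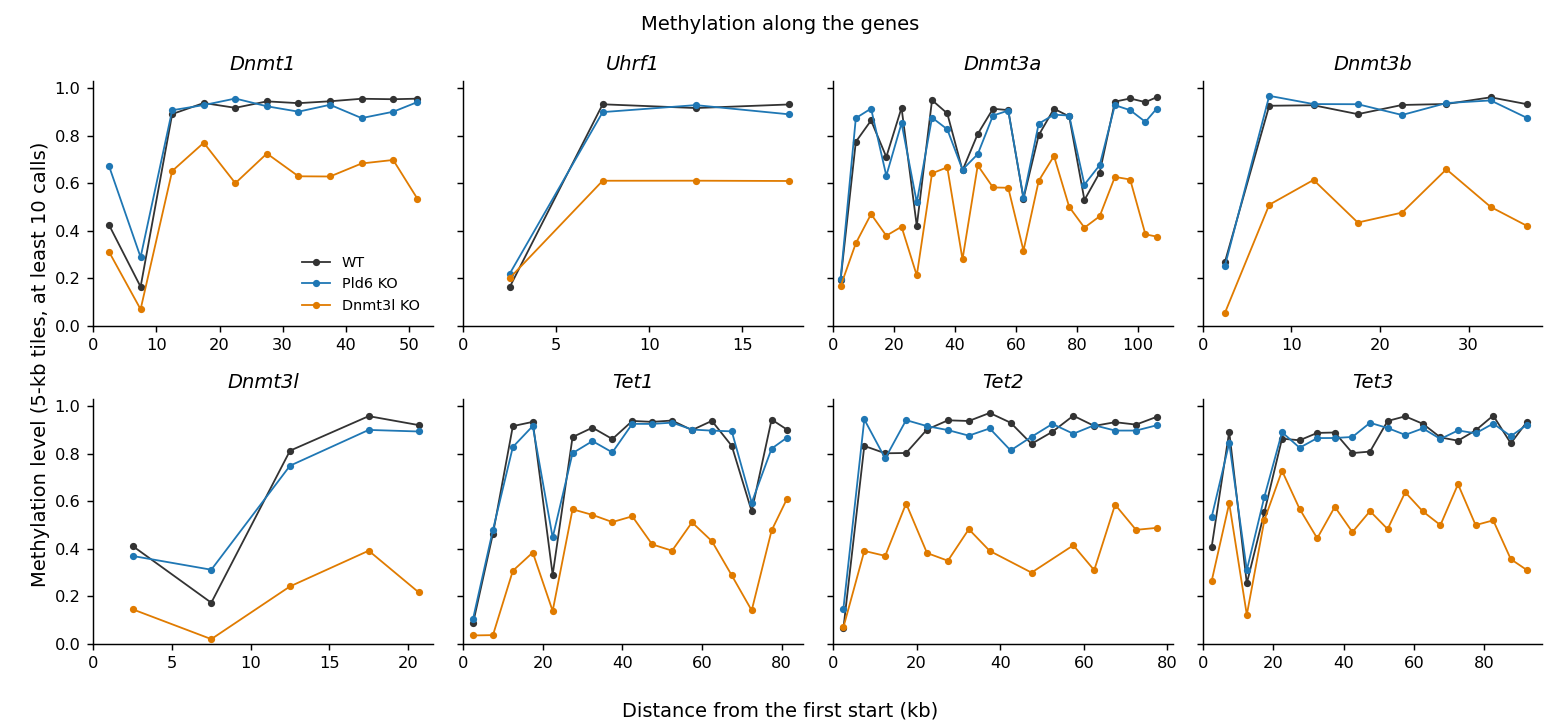
Methylation level (y axis) in 5-kb tiles with at least 10 calls along each of the 8 genes, against the distance from the first start in kb (x axis), with 1 line per library. *Dnmt3l* KO lies below WT over most tiles, and dips inside *Dnmt3a* and *Tet1* appear in all 3 libraries.

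Low stretches also lay inside 4 of the genes, away from the measured starts. Of 434 tiles of 1 kb with at least 10 WT calls over the 8 genes, 26 were under 0.2 in WT, and 12 of these were outside every start window. The share of such tiles over all genes was not computed, so these counts cannot be set against other genes. *Dnmt3a* held 5 of the 12, *Tet1* 5, *Tet2* 1 and *Dnmt3l* 1. Several adjoin a start, such as the tile from 1 to 2 kb of *Dnmt3a* (1 of 66 methylated calls in WT) and that of *Tet1* (3 of 109). The *Dnmt3l* tile, from 1 to 2 kb after start 1, holds the start of *Aire* (position 78043610). It was at 7 of 57 methylated calls in WT and 10 of 109 in *Pld6* KO, compared with 0 of 34 in *Dnmt3l* KO.

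The clearest stretches far from a curated start were in introns of *Tet1* and *Dnmt3a*. In intron 2 of *Tet1*, 21 to 22 kb from the start (chr10:62865325-62866324, 32 CpG sites), 2 of 119 calls were methylated in WT, 3 of 89 in *Pld6* KO and 1 of 27 in *Dnmt3l* KO. The RefSeq prediction *Gm51805* starts within 1 kb of this tile. In intron 4 of *Dnmt3a*, 64 to 65 kb from the start (chr12:3870980-3871979, 32 CpG sites), 0 of 39 calls were methylated in WT, 4 of 108 in *Pld6* KO and 1 of 39 in *Dnmt3l* KO, and neither a curated start of another gene nor a predicted start lies within 1 kb. Both tiles were picked for their low WT level, so their WT counts are low by choice. By counting error the zero in WT allows a level of up to 0.0769, which leaves that choice out. Both stretches lay in bodies that were otherwise methylated. The 300 bases with the most CpG sites in each tile are shown along the gene's strand with every CpG in capitals (read from GRCm38.p6).
Tet1 intron 2 (chr10:62865595-62865894, minus strand): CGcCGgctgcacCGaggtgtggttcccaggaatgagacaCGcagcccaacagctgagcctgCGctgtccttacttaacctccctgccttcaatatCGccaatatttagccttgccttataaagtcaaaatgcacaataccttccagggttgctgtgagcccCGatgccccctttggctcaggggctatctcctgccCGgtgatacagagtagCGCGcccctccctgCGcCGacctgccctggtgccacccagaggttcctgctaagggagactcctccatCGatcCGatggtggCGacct
Dnmt3a intron 4 (chr12:3871094-3871393, plus strand): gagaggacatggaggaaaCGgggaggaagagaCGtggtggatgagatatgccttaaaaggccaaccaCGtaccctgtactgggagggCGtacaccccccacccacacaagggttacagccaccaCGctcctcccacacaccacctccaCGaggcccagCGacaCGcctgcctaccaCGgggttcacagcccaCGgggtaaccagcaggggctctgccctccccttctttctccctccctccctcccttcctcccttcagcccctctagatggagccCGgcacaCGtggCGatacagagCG

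The *Tet1* sequence held 15 CpG sites, with 0 of 53 methylated calls in WT and 0 of 36 in *Pld6* KO, against 1 of 8 in *Dnmt3l* KO. The *Dnmt3a* sequence held 14, with 0 of 16 methylated calls in WT and 0 of 16 in *Pld6* KO, beside 0 of 5 in *Dnmt3l* KO. By counting error these zeros allow levels of up to 0.0566 and 0.0833 at *Tet1*. At *Dnmt3a* they allow up to 0.188 in both WT and *Pld6* KO, and 5 calls in *Dnmt3l* KO are too few for a level. The WT bounds leave out that the tiles were picked by WT level. The ratio of observed to expected CpG was 0.590 in the *Tet1* sequence and 0.489 in that of *Dnmt3a*. Among the RefSeq promoters of starts under 0.2 in WT, it ranged from 0.219 at *Dnmt3l* start 2 to 1.17 at *Tet2*. It was 0.5 at the upstream and 0.910 at the downstream position of *Dnmt1* start 2, and 0.607 at the *Tet1* start.

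Exons and introns of the bodies were compared within each library, a comparison added after the tiles had been seen and given without a test. In *Dnmt3l* KO, the exons of *Tet3* were at 0.348 (0.296 to 0.403, 305 calls) and its introns at 0.556 (0.522 to 0.589, 849 calls). In WT the *Tet3* exons and introns were at 0.839 and 0.859. Position along the gene was not separated from exon status. In *Dnmt3l* KO the *Tet3* tile from 85 to 90 kb was at 0.357 (115 calls) and the last tile at 0.311 (106 calls). The exons of *Tet1* were at 0.213 (0.171 to 0.262) and its introns at 0.334 (0.2998 to 0.370) in *Dnmt3l* KO, with 0.703 and 0.691 in WT. At *Dnmt1* no such gap was seen, with 0.622 in both exons and introns in *Dnmt3l* KO. The exon and intron intervals of *Uhrf1*, *Dnmt3a*, *Dnmt3b*, *Tet2* and *Dnmt3l* overlapped in *Dnmt3l* KO. In WT, the exons of *Dnmt3l* outside the deletion were at 0.946 (56 calls) and its introns at 0.634 (290 calls), and in *Dnmt3l* KO they were at 0.114 (44 calls) and 0.239 (163 calls). The exons of *Tet2* (0.951 against 0.834) and *Dnmt3a* (0.833 against 0.773) also lay above their introns in WT, with intervals apart.

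The other genes of the pathway were taken from 4 lists of 53 genes, of which 52 had a curated transcript, and each was measured at the start with the most transcripts. Of the 52, 45 were under 0.2 in WT, as were 64.5% of all 21343 starts with at least 10 calls in every library. The median of the 52 was 0.0741 in WT and 0.0861 in *Pld6* KO, compared with 0.0262 in *Dnmt3l* KO. One of the 52 genes fell by at least 0.3 in *Dnmt3l* KO, against 22.0% of all starts, and none changed by that much in *Pld6* KO, against 0.923% of all starts. Few of the 52 had a methylated start that could fall by this much, and of all starts with a WT level of at least 0.3, 76.6% did. The gene that fell was *Nsd2*, a histone H3 lysine methyltransferase, whose start was at 0.968 in WT (31 calls) and 0.870 in *Pld6* KO (54 calls), against 0.316 in *Dnmt3l* KO (19 calls). By list, it was 1 of 15 cofactors of maintenance and *de novo* methylation. None of the 19 genes of oxidised base removal and repair, none of the 7 methyl-CpG readers and none of the 11 genes of methyl donor synthesis fell by as much. Most genes that supply, read or repair methylation thus had starts under 0.2 in WT, like *Uhrf1*, the *Tet* genes and most starts of all genes.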

How the data were processed

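One whole-genome bisulfite library per genotype, made by post-bisulfite adaptor tagging from spermatogonia at P7, was analysed. The authors trimmed the single-end reads, removed low-quality stretches and mapped them with Bismark to mm10 (submitters' processing notes). The deposited values are 2 counts for each CpG site, of calls that were methylated and calls that were not, and a methylation level, a fraction that nowhere differed from their quotient. Every site on a chromosome was at a CG of GRCm38.p6. Removal of duplicate reads, and whether calls of both strands were summed, are not given in the sources used here.

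Calls were pooled over the sites of a region, and regions came from curated RefSeq transcripts. Starts within 500 bp were taken as 1, at the position with the most transcripts. Depth ranged from 19289688 calls in *Dnmt3l* KO to 64076569 in *Pld6* KO. The Wilson and Newcombe 95% intervals cover counting error only. For a level of 0, the bound is 3 calls of the total. No test between genotypes was possible with 1 library each. Fisher's exact test (two-sided, Benjamini-Hochberg over all starts or bodies) compares libraries, and linked calls make its p-values too small. The members, gene lists and tests were chosen with earlier results of these data known. All 8 members were named, and of the other pathway genes those that changed by at least 0.3. The alternatives changed the sites used, the pooling, the spacing of sites, the size of a change, the call rule, the minimum of calls, the width and the grouping of starts. The scripts were tested on simulated calls. Python 3.11.15, NumPy 2.4.6, pandas 2.3.3, SciPy 1.17.1 and matplotlib 3.10.9 were used.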

Additional observations from a re-analysis of the deposited data

How the results depend on the processing

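With the settings of the report, 3 starts of the 8 genes fell in *Dnmt3l* KO, against 22.0% of all starts. Within 500 bp of the start the count was 1 (*Dnmt3l* start 3, 12 starts with enough calls), against 13.0% of all. With at least 30 calls in both libraries it was 1 (*Dnmt1* start 1, 12 starts), against 11.1%. By Fisher's exact test it was 5, against 39.7%. Under each of the other settings listed with the methods it was 2 or 3, against 15.5% to 28.4%. With the higher minimum, *Dnmt3l* starts 1 and 3 had too few calls in *Dnmt3l* KO (21 and 28), as had *Dnmt3l* start 1 within 500 bp (8). Within 500 bp *Dnmt1* start 1 had 4 calls there and a difference of -0.173, under the size as well. The count of starts changed in *Pld6* KO was 0 in the report, against 0.923% of all starts. It was 2 with sites of at least 3 calls (*Dnmt1* start 2, 0.377, and *Dnmt3l* start 3, -0.305), against 1.97%. With sites at least 80 bp apart it was 1 (*Dnmt3l* start 3, -0.373), against 1.21%. Fisher's exact test also called 1 (*Dnmt1* start 2), against 6.09%. The cause was not tested. With only the part from 2 kb to 0.5 kb upstream, chosen after seeing the data, the counts were 5 in *Dnmt3l* KO and 1 in *Pld6* KO. Over all genes 44.4% and 3.39% of these flanks changed. Bodies that fell in *Dnmt3l* KO numbered 5 to 8 over the alternatives (5 over whole gene spans, where *Dnmt3a* was under the size), and 0 changed in *Pld6* KO. The shares over all bodies ran from 54.0% (whole gene spans) to 95.5% (Fisher's exact test) in *Dnmt3l* KO. In *Pld6* KO they ran from 0.0476% to 17.9%. The *Pld6* KO difference of *Dnmt1* start 2, called by Fisher's exact test, was -0.0595 in the upstream part alone and 0.0362 as a mean of site levels. No other called difference of a start or body changed its sign. Sites at least 80 bp apart moved 24 of 42 start levels out of their intervals, and the narrower window moved 32 of 42. No paired analysis was possible because each genotype had 1 library. The *Dnmt3l* KO library, at 0.879 calls per CpG site, limits most values at single starts.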

Other observations

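A group of CpG sites in the first intron of *Dnmt1*, between its starts, was low in WT and differed in *Pld6* KO, and was singled out after its values were seen. From 0.75 to 1 kb after start 1 (8 CpG sites), 2 of 27 calls were methylated in WT, 10 of 20 in *Pld6* KO and 0 of 4 in *Dnmt3l* KO. In the next 250 bp (7 CpG sites), 4 of 36 were in WT, 10 of 22 in *Pld6* KO and 0 of 12 in *Dnmt3l* KO. Calls in bins of this size come from few reads, and the difference was not tested.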
